A study of Drosophila melanogaster with 12 samples.

Results

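Polysome loading in control S2 cells was measured by setting the mRNA of polysome fractions against the mRNA of the whole lysate. S2 is an established line of Drosophila melanogaster that was derived from embryos and resembles hemocytes, the blood cells of the fly. The 6 libraries used were those of polysome fractions (3) and of input lysate (3) from cells given dsRNA against GFP, a sequence that S2 cells lack. The genes described were all those that passed a filter on low counts in these 6 libraries, 8688 of the 17023 identifiers counted, and the series holds 12 libraries in all. The other 6 came from cells given dsRNA against porthos (pths, also CG9253), a DEAD-box RNA helicase, and enter only where they are named.

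All cells took up 1 µg of dsRNA and were passaged after 48 h and grown for 3 more days. Before lysis they were held for 3 min in 100 µg/ml cycloheximide, a drug that stops elongating ribosomes on their mRNA. An aliquot of 20% of each lysate served as input, and the remainder went through a 10 to 50% sucrose gradient, which separates complexes by mass. Both kinds of library were made with poly(A) selection. Input RNA was taken up in TRIzol and polysome RNA was extracted with phenol and chloroform, so that fraction and extraction cannot be told apart. The labels list 15 mM EDTA in the lysis buffer and 15 mM MgCl2 in the gradient buffer. Ribosomal subunits need magnesium to stay joined, and the part of the EDTA in the results was not tested. The labels do not say which gradient fractions were taken as polysomes. They also leave unsaid whether replicates came from separate cultures, and the p-values cover only the spread among these libraries, part of which may be technical.

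An mRNA that is being translated usually carries several ribosomes at once, and such polysomes sediment deep into a gradient, while free mRNA and mRNA with a single ribosome stay near its top. The number of ribosomes on an mRNA depends on how often ribosomes start, how fast they move and how long the coding sequence is. Ribosomal protein mRNAs, mRNAs with short upstream reading frames in the leader and mRNAs bound by repressor proteins are textbook cases of mRNAs whose place in the gradient is regulated. The ratio used here is the CPM (counts scaled to a common library total, with TMM scaling between libraries) of a gene on polysomes over that in input. It is relative to the average mRNA, so a shift shared by all mRNAs cannot be seen.

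Polysome libraries held 8381771, 9453365 and 7559406 counts in replicates 1 to 3, and input libraries 9648377, 10096996 and 9735875. Between 11615 and 11774 genes had a count in each. The first principal component, with 74.0% of the variance, separated the fractions, and polysome replicate 1 lay farther from the inputs (32.7) than replicates 2 (21.9) and 3 (21.4), with inputs between -25.6 and -25.1. Hemocyte markers were tested for 10 of 14 genes, with summed CPM of 1296 to 1491 on polysomes and 1844 to 2087 in input. The phagocytic receptor gene NimC2 was at 0 counts in all 6 libraries, and NimC1, NimB1 and Sr-CI stayed under 1 CPM. Of 5 fat body markers 0 were tested, and the germline gene aub and the neuronal gene elav had 76.4 to 90.3 and 66.8 to 84.6 CPM on polysomes, against 197 to 204 and 128 to 151 CPM in input. Levels and directions varied among the other markers of these cell types. The neuronal genes nSyb (1.03 to 1.75 CPM) and Syt1 (under 1 CPM) were near the floor in all 6 libraries. The germline gene osk had 12.9 to 13.7 CPM on polysomes and 9.70 to 10.5 CPM in input, and for bam and piwi the fractions overlapped. In a wider germline list 5 of 7 tested genes were called lower and 1 higher on polysomes (median log2 ratio -0.50). Of all genes tested, 30.5% were lower and 30.4% higher. With library size scaling 2 of the germline list were lower. All 37 mitochondrially encoded identifiers were listed at 0 counts in all 12 libraries and are not described.

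In GFP dsRNA cells 2640 genes (30.4% of those tested) were higher and 2654 (30.5%) were lower on polysomes than in input, with a Benjamini-Hochberg adjusted p below 0.05 by edgeR's quasi-likelihood test. At least 2-fold, 332 genes (3.82%) were higher and 226 (2.6%) were lower. The log2 ratios had a median of 0.02 and an SD over genes of 0.56, and 90% of genes lay between -0.86 and 0.94. Without polysome replicate 1 the number of genes at least 2-fold higher was 208. Scaling by library size alone raised the median of all genes by 0.11 to 0.14 and gave 60.3% of calls as higher, against 49.9% with TMM, with 555 genes higher and 125 lower by at least 2-fold. Upper quartile scaling raised the median by 0.11 (59.4% of calls higher). Ratios near 0 below are read relative to that shift.

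The ratio fell steadily with the length of the coding sequence. Coding sequences under 300 nt had a median log2 ratio of 0.98 (189 genes), with 84.1% of them higher and 0.529% lower. From 300 to 600 nt the median was 0.76 (934 genes), and from 600 to 1200 nt it was 0.31 (2267 genes). It then crossed 0, with -0.12 from 1200 to 2400 nt (2897 genes) and -0.40 from 2400 to 4800 nt (1427 genes). At 4800 nt and over the median was -0.59 (446 genes), with 0.673% of them higher and 80.5% lower. Spearman's rank correlation across 8160 protein-coding genes was -0.74 for coding length, as a description over genes that share libraries and are not independent replicates.

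**Figure D1:**
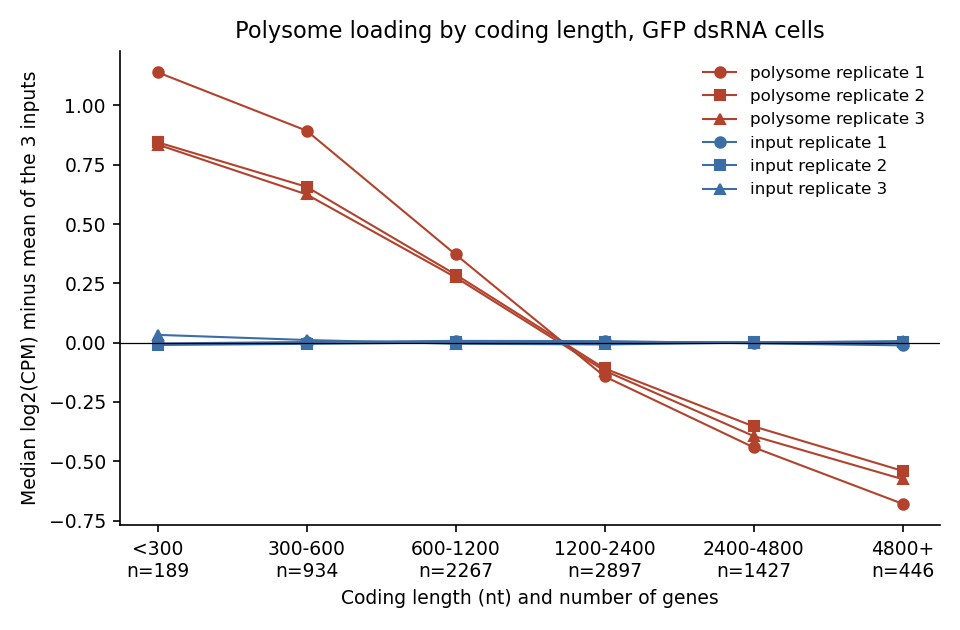
Median log2 CPM of protein-coding genes in each library, minus the mean of the 3 inputs, by class of coding length (x axis, nt, with the number of genes). Red lines are the polysome and blue lines the input libraries, with a marker shape per replicate. The 3 polysome lines run from 0.84 to 1.14 in the shortest class down to -0.68 to -0.54 in the longest. The inputs are set against their own mean, so only their spread around 0 is informative.

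Each polysome library showed the gradient on its own. The median of the shortest class relative to the mean input was 1.14, 0.84 and 0.84 in polysome replicates 1, 2 and 3, and that of the longest class was -0.68, -0.54 and -0.58. A straight line through 8419 genes had a slope per doubling of coding length of -0.39, -0.30 and -0.30 log2 units in polysome replicates 1 to 3, against values between -0.0023 and 0.0030 in the inputs. The inputs were set against their own mean, so their slopes center on 0 by construction and only their spread is informative. Polysome replicate 1 was the steepest, and no polysome library overlapped an input. In shares of all coding CPM, genes of 300 to 600 nt took 21.3, 18.9 and 18.1% of the polysome libraries and 13.2, 13.0 and 13.3% of the inputs. Genes of 4800 nt and over took 6.07, 6.83 and 6.87% of the polysome libraries and 9.99, 10.2 and 10.2% of the inputs.

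Transcript length carried the same pattern (rank correlation -0.72), and in transcripts under 4800 nt coding length still separated genes of like transcript length. Among transcripts of 1200 to 2400 nt the median log2 ratio was 0.50 for coding sequences of 300 to 600 nt (154 genes), 0.25 for 600 to 1200 nt (1272 genes) and -0.05 for 1200 to 2400 nt (1687 genes). Among transcripts of 2400 to 4800 nt it was 0.14, -0.03, -0.22 and -0.40 in the 4 coding classes from 300 nt upward (20, 120, 1143 and 1000 genes). Among transcripts of 4800 nt and over the medians did not fall steadily, with -0.41, -0.31, -0.38 and -0.59 in the 4 coding classes from 600 nt upward (14, 67, 427 and 446 genes). Untranslated regions went with the ratio more weakly. The rank correlation was -0.28 for the leader and -0.29 for the trailer, and -0.46 for the number of exons.

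Within coding sequences of 600 to 1200 nt the median was 0.39 with a leader under 50 nt (295 genes) and 0.17 with a leader of 500 nt and over (175 genes). In the same class it was 0.42 with a trailer under 100 nt (603 genes) and -0.0013 with a trailer of 1000 nt and over (156 genes). Within 2400 to 4800 nt the corresponding trailer medians were -0.41 (157 genes) and -0.39 (301 genes) and lay close together. When a smooth trend of exon length was taken out of each library, the SD of the ratios fell to 0.42, against 0.56 with it, and 43 genes were higher and 100 lower by at least 2-fold. Of 8489 genes with a length, 25.2% were higher and 23.2% lower in that setting, which is quoted below as the length-corrected ratio. Length-corrected counts of list members below are to be read beside these shares, and other counts beside 30.4% and 30.5%.

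Nuclear genes for oxidative phosphorylation (OXPHOS), the mitochondrial respiratory chain and ATP synthase, stood high on polysomes. Of 70 tested subunit genes (88 listed, several of which are variants of other tissues) 60 were higher and 5 lower, against 30.4% and 30.5% of all genes tested, and their median log2 ratio was 1.02 against 0.02 for all genes. Their summed CPM was 15925, 13624 and 12463 in polysome replicates 1 to 3 and 9230, 9220 and 8621 in the inputs. All 3 polysome sums lay above all inputs, with replicate 1 the highest. The length-corrected median was 0.41, with 53 higher and 4 lower.

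In complex I, the NADH dehydrogenase, 29 of 32 tested members were higher (median 1.05). ND-AGGG, a small accessory subunit, had 22.4, 15.8 and 15.8 CPM on polysomes and 5.73, 5.47 and 8.32 CPM in input (log2 ratio 1.46 ± 0.19 SE, edgeR adjusted p = 3.2e-06). The exceptions were large core subunits. ND-49 had 86.6, 99.0 and 105 CPM on polysomes and 165, 174 and 174 CPM in input (-0.82 ± 0.08, adjusted p = 1.0e-07), and ND-75, which carries iron-sulfur clusters, was also lower (-0.45). ND-51, the subunit that binds NADH, had 0.13 and was not called.

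Complex IV, cytochrome c oxidase, had 11 of 12 nuclear members higher (median 1.08). Its subunit gene COX7A had 393, 300.1 and 256 CPM on polysomes and 136, 128 and 119 CPM in input, a log2 ratio of 1.31 ± 0.11 (adjusted p = 5.7e-08). The 3 polysome values spread widely but stayed above every input. In complex III, which passes electrons to cytochrome c, the small subunits UQCR-Q (1.35), UQCR-6.4 (1.34) and ox (1.31) were higher, whereas the large core proteins UQCR-C1 (0.02) and UQCR-C2 (0.04) were not called. Complex II, succinate dehydrogenase, had its membrane anchors SdhC (1.21) and SdhD (0.88) and its iron-sulfur subunit SdhB (0.52) higher and its flavoprotein SdhA lower (-0.75).

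ATP synthase showed the same split, with 11 of 14 members higher and 2 lower. ATPsynG, a small membrane subunit, had 325, 249 and 221 CPM on polysomes and 113, 108 and 104 CPM in input (1.29 ± 0.11, adjusted p = 3.2e-08). The catalytic beta subunit ATPsynbeta had 1295, 1437 and 1517 CPM on polysomes and 1737, 1849 and 1734 CPM in input (-0.32 ± 0.08, adjusted p = 0.0018), and the alpha subunit blw was lower too (-0.18). By coding length, 48 of 49 OXPHOS genes under 600 nt were higher (median 1.08), as were 10 of 10 from 600 to 1200 nt (median 0.71). Of the 11 with 1200 nt and over 2 were higher and 5 lower (median -0.09).

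Mitochondrial ribosomal protein genes, which are encoded in the nucleus, were mostly higher too. Of 72 tested 62 were higher and 1 lower, with a median of 0.77 (length-corrected 0.17, with 27 higher and 8 lower). Their summed CPM was 4465, 3881 and 3721 on polysomes and 2566, 2537 and 2529 in input. mRpS14 of the small subunit had 42.9, 35.7 and 24.7 CPM on polysomes and 13.7, 12.6 and 11.6 CPM in input (1.45 ± 0.16, adjusted p = 9.5e-07). mRpS30, with the longest coding sequence of the list, was the member that was lower (-0.19). Of the 72 genes 41, with mRpS14, have a neighbour on the opposite strand that overlaps them, and without these 26 of 31 were higher and 1 lower, against 29.7% and 31.4% of all genes in that setting.

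Import and chaperone genes of mitochondria fell on both sides. Of 12 tested 7 were higher and 4 lower (median 0.74, length-corrected 0.26). The small import subunits Tom7 (1.25), Tim8 (1.18) and Tim9a (1.10) and the receptor Tom20 (1.06) were higher. The receptor Tom70 (-1.02) and the matrix chaperones Hsp60A (-1.14) and Hsc70-5 (-0.70) were lower. In the TCA cycle, which feeds the chain, 6 of 16 were higher and 7 lower (median 0.02, with 5 higher and 4 lower after length correction), with the oxoglutarate dehydrogenase gene Ogdh lowest (-1.15). Glycolysis had 5 of 12 higher, such as Tpi (0.55), triose phosphate isomerase, and 4 lower, such as Pfk (-0.58), phosphofructokinase. Of all genes tested, 30.4% were higher and 30.5% lower. The glycolysis median of -0.04 turned positive after length correction (0.05), with library size scaling (0.08) and without polysome replicate 1 (0.02).

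**Figure D2:**
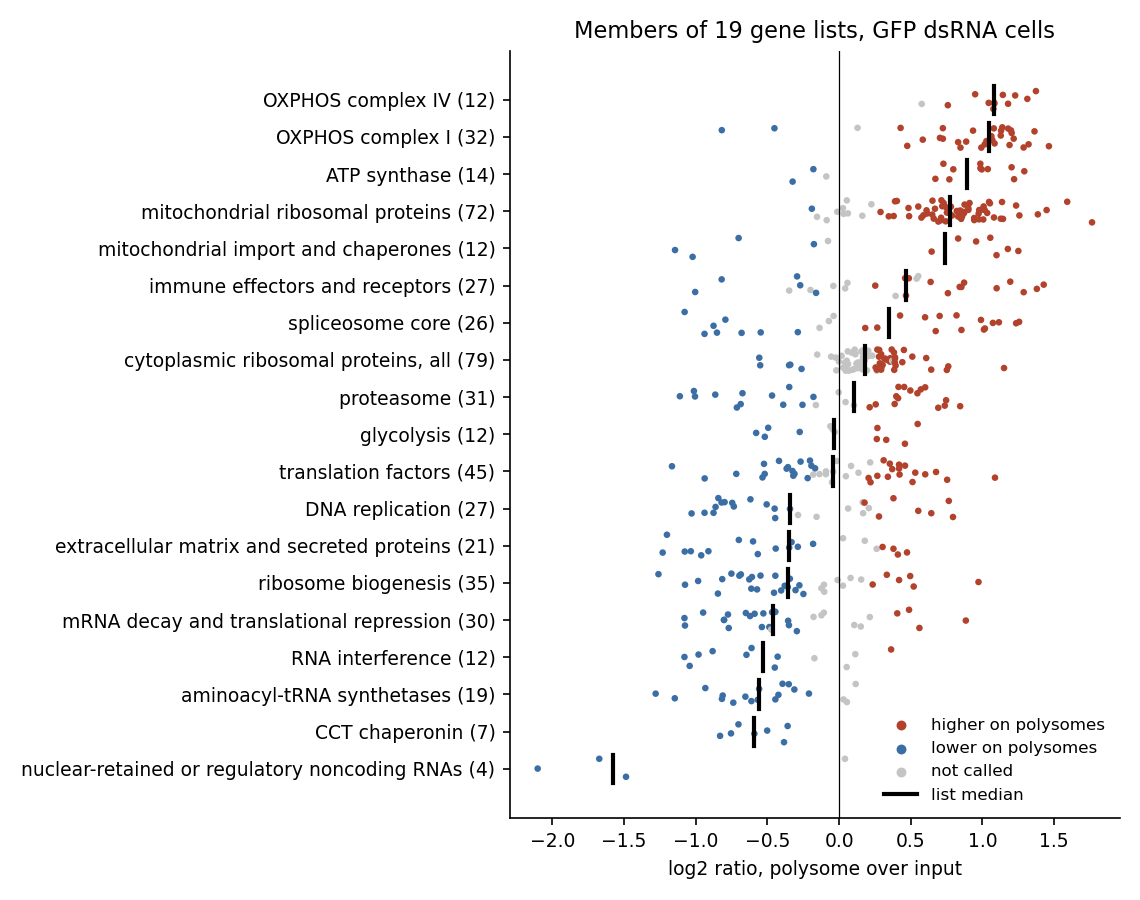
Log2 ratio of polysome over input (x axis) for each tested member of 19 gene lists (rows, with the number tested), coloured by whether edgeR called it higher (red), lower (blue) or neither (grey). Black bars are list medians, which run from 1.08 for OXPHOS complex IV down to -1.58 for regulatory noncoding RNAs, and many lists hold members on both sides of 0.

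Cytoplasmic ribosomal protein mRNAs stood below short mRNAs as a whole. Of 79 tested (81 listed) 30 were higher and 5 lower, against 30.4% and 30.5% of all genes tested. The list had a median log2 ratio of 0.18, although its median coding length was 468 nt. Coding genes of 300 to 600 nt as a whole had a median of 0.76, and the 46 ribosomal protein genes of that class had 0.20. Under 300 nt the medians were 0.17 for 9 ribosomal protein genes and 0.98 for all 189 coding genes, and from 600 to 1200 nt they were 0.14 (22 genes) and 0.31. The length-corrected median was -0.32, with 1 higher and 53 lower. Mitochondrial ribosomal protein genes of 300 to 600 nt had 0.94 (37 genes) and OXPHOS genes 1.07 (34 genes).

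**Figure D3:**
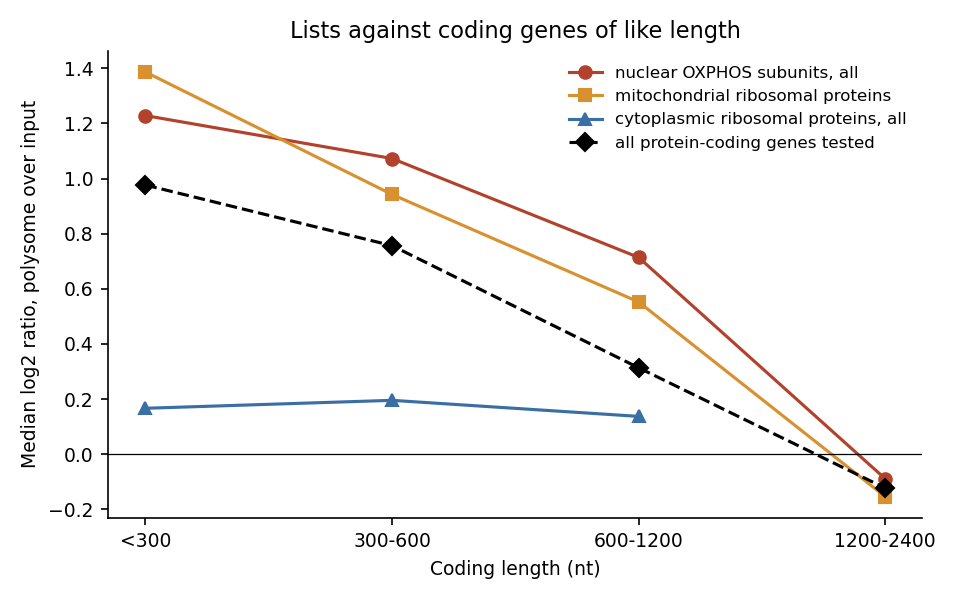
Median log2 ratio of polysome over input (y axis) in classes of coding length (x axis, nt) for OXPHOS subunits, mitochondrial ribosomal proteins, cytoplasmic ribosomal proteins and, dashed, all protein-coding genes tested. In the class of 300 to 600 nt the first 3 lie at 1.07, 0.94 and 0.20 and all coding genes at 0.76. The line of cytoplasmic ribosomal proteins is nearly flat.

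The level of ribosomal protein mRNAs differed between polysome libraries. Their median relative to the mean input was 0.42, 0.18 and -0.07 in polysome replicates 1, 2 and 3. They took 11.8, 10.4 and 8.83% of the polysome CPM and 9.41, 9.44 and 9.34% of the input CPM. Replicates 1 and 2 lay above the inputs and replicate 3 below them, so the fractions overlapped. Without polysome replicate 3, 56 members were higher and 5 lower, without replicate 1 the numbers were 23 and 7, and library size scaling gave 55 and 4, against 37.4% and 24.7% of all genes. The large subunit list had 20 of 44 higher and 2 lower (12 and 2 without input replicate 2), and the small subunit list 10 of 35 higher and 3 lower (24 and 3 without polysome replicate 3).

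Single ribosomal protein genes ranged widely. RpS2, a small subunit protein, had 1094, 947 and 762 CPM on polysomes and 1367, 1473 and 1285 CPM in input (log2 ratio -0.56 ± 0.10, edgeR adjusted p = 0.00018). RpS29 (-0.55), RpL5 (-0.35), sta (-0.34) and the stalk base gene RpLP0 (-0.26) were the other lower ones. RpL18, a large subunit protein, had 846, 675 and 527 CPM on polysomes and 499, 489 and 450 CPM in input (0.51 ± 0.12, adjusted p = 0.0011). Its lowest polysome library stood only just above the highest input, and its length-corrected ratio was -0.11. RpL41, whose coding sequence of 75 nt was the shortest of the genes above 50 CPM in input, had 1506, 1398 and 1009 CPM on polysomes and 1330, 1233 and 1354 CPM in input, so the fractions overlapped.

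Duplicated ribosomal protein genes did not stand alike, although reads of close copies may be split uncertainly by the counting. RpS15Ab had 88.8, 67.4 and 56.9 CPM on polysomes and 31.6, 37.1 and 27.2 CPM in input (1.15 ± 0.14, adjusted p = 1.7e-06), and its abundant copy RpS15Aa had 1066, 981 and 847 CPM on polysomes and 908, 948 and 946 CPM in input (0.05 ± 0.08, not called). The minor copy RpS19b had 0.76 and RpS19a 0.45, and RpL34a had 0.64 and RpL34b 0.16. RpS10a (0.75) was also higher. The difference between copies was not tested.

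Translation factors fell on both sides, 17 of 45 higher and 17 lower (54 listed), against 30.4% and 30.5% of all genes tested. Their median of -0.04 turned to 0.07 with library size scaling, and after length correction 10 were higher and 16 lower. eIF1, a small factor in start codon choice, had 1927, 1543 and 1545 CPM on polysomes and 729, 784 and 847 CPM in input (1.09 ± 0.09, adjusted p = 4.6e-08). The scaffold gene eIF4G1, which joins the cap-binding protein to the ribosome, had 360.2, 385 and 393 CPM on polysomes and 822, 853 and 880.4 CPM in input (-1.17 ± 0.07, adjusted p = 1.2e-09). Elongation factor eEF2, which drives translocation, had 5636, 5982 and 5626 CPM on polysomes and 7043, 7791 and 7248 CPM in input (-0.36 ± 0.09, adjusted p = 0.0026). The poly(A)-binding protein gene pAbp was lower (-0.52), and eIF4A, a helicase, was slightly lower (-0.22). eEF1beta (0.37), eEF1delta (0.75) and eIF1A (0.53) were higher.

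Of 19 aminoacyl-tRNA synthetase genes, whose products charge tRNAs, 0 were higher and 16 lower (median -0.56, length-corrected -0.48). Among all genes tested 30.4% were higher and 30.5% lower. GluProRS, a fused enzyme, had 239, 273 and 283 CPM on polysomes and 611, 656 and 665 CPM in input (-1.28 ± 0.07, adjusted p = 1.2e-09). TyrRS (0.03), HisRS (0.05) and TrpRS (0.12) were not called. All 7 tested genes of the CCT chaperonin, the ring that folds actin and tubulin, were lower (median -0.59, length-corrected -0.56), from CCT6 (-0.83) to CCT4 (-0.36).

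Of 31 proteasome genes 15 were higher and 12 lower, against 30.4% and 30.5% of all genes tested. Their median of 0.10 turned to -0.01 without polysome replicate 2 and to -0.14 after length correction. The list was divided into its structural parts after the values were seen. All 13 tested genes of the core particle, which cuts proteins, were higher (median 0.55, from 0.39 for Prosbeta2 to 0.84 for Prosbeta3), with coding lengths of 603 to 846 nt. Of 18 genes of the regulatory particle, which unfolds and feeds substrates, 2 were higher and 12 lower (median -0.37), with coding lengths of 792 to 3087 nt. Rpn1 had 146, 159 and 143 CPM on polysomes and 326, 341 and 299 CPM in input (-1.11 ± 0.07, adjusted p = 2.4e-09), and Rpn2 and the ATPase Rpt6 had -1.01 each. After length correction 3 core genes were higher and 0 lower, and 0 regulatory genes were higher and 15 lower.

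Of the genes of ribosome biogenesis 6 of 35 were higher and 22 lower (median -0.36, length-corrected -0.27 with 3 higher and 23 lower). Over all genes 30.4% were higher and 30.5% lower, and after length correction 25.2% and 23.2%. Mybbp1A (-1.26), Nopp140 (-1.08), a nucleolar chaperone, and Ns1 (-0.85), nucleostemin, were low, and NHP2 (0.97), a small protein of the pseudouridine-guiding complex, was high. In mRNA decay and translational repression 4 of 30 were higher and 19 lower (median -0.46, length-corrected -0.14 with 4 higher and 12 lower). The stress granule gene rin (-1.08), the repressors brat (-0.95) and pum (-0.78) and the deadenylase scaffold Not1 (-0.80) were lower, while LSm1 (0.88), a decapping activator, and the deadenylase Pop2 (0.56) were higher.

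RNA interference had 1 of 12 higher, the small dsRNA-binding protein gene r2d2 (0.36), and 8 lower (median -0.53, length-corrected -0.14 with 6 lower). Among these were AGO1 (-1.08) and AGO2 (-1.04), which bind small RNAs, and the nuclease gene Dcr-2 (-0.98). These cells had been given dsRNA, and no untreated cells were measured. In the spliceosome 15 of 26 were higher and 8 lower (median 0.35, length-corrected 0.11 with 10 higher and 8 lower). Beside both lists stand 30.4% higher and 30.5% lower of all genes, or 25.2% and 23.2% after length correction. The Sm ring genes SmF (1.26), SmE (1.12) and SmD1 (1.02) stood opposite Prp8 (-1.08), the scaffold of the catalytic core, and Sf3b1 (-0.85), which binds the branch site.

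DNA replication genes had 7 of 27 higher and 14 lower (median -0.34, length-corrected -0.29 with 2 higher and 16 lower). The ribonucleotide reductase subunit RnrL (-1.03) and the helicase genes Mcm6 (-0.94) and Mcm2 (-0.88) were lower, and the loader subunit RfC4 (0.79) and the small GINS genes Sld5 (0.77) and Psf2 (0.64) were higher. Cell cycle genes had 5 of 29 higher and 14 lower (median -0.22, length-corrected -0.10 with 7 higher and 10 lower). Without input replicate 2 or without polysome replicate 2, 3 were higher. Over all genes 30.4% were higher and 30.5% lower, and the 7 higher DNA replication genes were near that share. After length correction the shares were 25.2% and 23.2%, and the 7 higher cell cycle genes were near the first. The spindle checkpoint genes BubR1 (-1.25) and Mad1 (-1.13) and the cyclins CycA (-0.75) and CycB (-0.73) were lower, and geminin (0.80), an inhibitor of relicensing, was higher.

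Transcription factors had 9 of 50 higher and 29 lower with a median of -0.21, which turned to 0.11 after length correction (21 higher and 8 lower). Myc, a growth regulator, had 171, 200.4 and 238 CPM on polysomes and 483, 497 and 570.2 CPM in input (-1.35 ± 0.10, adjusted p = 9.5e-09), whereas its small partner Max was higher (0.71). REPTOR (-0.85), a factor downstream of TORC1, and its small partner REPTOR-BP (0.88) were parted in the same way. Signalling genes had 3 of 29 higher and 16 lower with a median of -0.29, which turned to 0.07 after length correction (12 higher and 9 lower). The shares over all genes were 30.4% higher and 30.5% lower, and 25.2% and 23.2% after length correction. The cytokine receptor gene dome (-1.21), raptor (-1.03) of TORC1, gig (-0.92), which restrains TORC1, and the kinase gene Akt (-0.73) were lower, and Ras85D (0.25) and Lkb1 (0.53) were higher.

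In the actin list 11 of 29 were higher and 12 lower, against 30.4% and 30.5% of all genes tested. Its median of -0.02 changed sign under several settings, with 0.11 after length correction. HSPC300 (1.20), the smallest subunit of the WAVE complex, and the cofilin gene tsr (0.90) were higher, and the large WAVE subunit Hem (-1.12) and filamin gene cher (-1.01) were lower. In the ER targeting list 10 of 25 were higher and 11 lower (median 0.05, but -0.0024 without input replicate 3 and -0.06 after length correction). The signal recognition particle gene Srp14 (1.26) and the translocon subunits Sec61beta (1.04) and Sec61gamma (0.90) were higher, and the pore subunit Sec61alpha (-0.47) and the chaperone Gp93 (-1.16) were lower. The vacuolar ATPase, a proton pump, had 5 of 15 higher and 4 lower, shares close to the 30.4% and 30.5% of all genes tested. Its median of 0.09 turned to -0.08 without input replicate 1, when 3 were higher.

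Matrix and secreted proteins were mostly lower, 14 of 21 with 4 higher (median -0.35, length-corrected -0.23 with 11 lower and 4 higher). By comparison, 30.5% of all genes were lower and 30.4% higher, and after length correction 23.2% and 25.2%. LanA, a laminin chain and 1 of the 10 most abundant mRNAs of the input, had 1435, 1577 and 1435 CPM on polysomes and 3469.6, 3591 and 3382 CPM in input (-1.23 ± 0.08, adjusted p = 3.1e-09). The matrix ligand Tig (-1.20), the other laminin chains LanB2 (-1.03) and LanB1 (-0.96) and the collagen genes Col4a1 (-0.91) and vkg (-0.70) were lower as well. SPARC (0.47), a short matrix glycoprotein, and the ferritin genes Fer2LCH (0.41) and Fer1HCH (0.30) were higher. Of the hemocyte markers 0 of 10 were higher and 7 lower (median -0.39, length-corrected -0.18 with 3 higher and 5 lower). The clotting gene Hml (-1.08) and the phagocytic receptor eater (-1.07) led them, and Hml, Col4a1, vkg and Pxn are also in the matrix list. Without input replicate 1, input replicate 2 or polysome replicate 3, 5 markers were lower. With library size scaling 1 was higher and 5 lower.

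Immune genes had 14 of 27 higher and 5 lower (median 0.47, with 3 lower without input replicate 3). The length-corrected median was 0.21, with 10 higher and 4 lower. Antimicrobial peptides, whose mRNAs are very short, led the list, with Dro (1.43), CecA2 (1.38), DptB (1.29), CecA1 (1.19) and CecC (1.10) all higher. CecA1 had 60.8, 47.4 and 54.7 CPM on polysomes and 19.5, 23.9 and 27.6 CPM in input. The receptor gene Tl was lower (-1.004), and the NF-kappaB factor Rel had -0.16. Heat shock and chaperone genes had 4 of 13 higher and 6 lower, against 30.4% and 30.5% of all genes tested. Among the higher ones were the small heat shock genes Hsp23 (0.49), Hsp26 (0.41) and Hsp27 (0.36). Hsc70-3 (-0.96) of the ER, Hsc70-4 (-0.88) and Hsp83 (-0.77) were among the lower ones. The list median of -0.38 turned to 0.08 without input replicate 3, and without polysome replicate 3 it was -0.68, with 9 lower.

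A further list held mRNAs known for translational control together with genes that the study concerns, such as CG9331. Of its 18 tested members 7 were higher and 5 lower, against 30.4% and 30.5% of all genes tested. Myc, CycB and Hsp83, given above, were among the lower ones. crc, the fly ATF4 gene, whose leader holds upstream reading frames, had 2490.3, 2399 and 2374 CPM on polysomes and 1902, 1902 and 1966 CPM in input (0.33 ± 0.07, adjusted p = 0.00090). Thor, the fly 4E-BP that represses cap-dependent initiation, had 439, 360.2 and 400.4 CPM on polysomes and 256, 244 and 289 CPM in input (0.60 ± 0.08, adjusted p = 4.9e-06), with a length-corrected ratio of -0.02. In both genes every polysome library lay above every input.

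The cell death gene rpr (0.78), Oda (0.55), the antizyme gene that is read with a frameshift, and porthos itself (0.54) were higher. msl-2 (-0.49), which is repressed in females by Sxl, and Sxl itself (-0.28) were lower, although the length-corrected ratio of Sxl was 0.21. osk, a germline gene, was higher (0.38), with the call lost on leaving out single libraries (largest adjusted p = 0.068). hid (-0.19), Sps2 (0.19), the mitochondrial ADP carrier sesB (0.09) and Hsp70Ba (-0.57, with up to 3.09 CPM) were not called. Of the genes the study concerns, CG9331 was higher (0.64) and atos, a gene of the macrophage program, was not called (0.02 ± 0.06, adjusted p = 0.76).

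**Figure D4:**
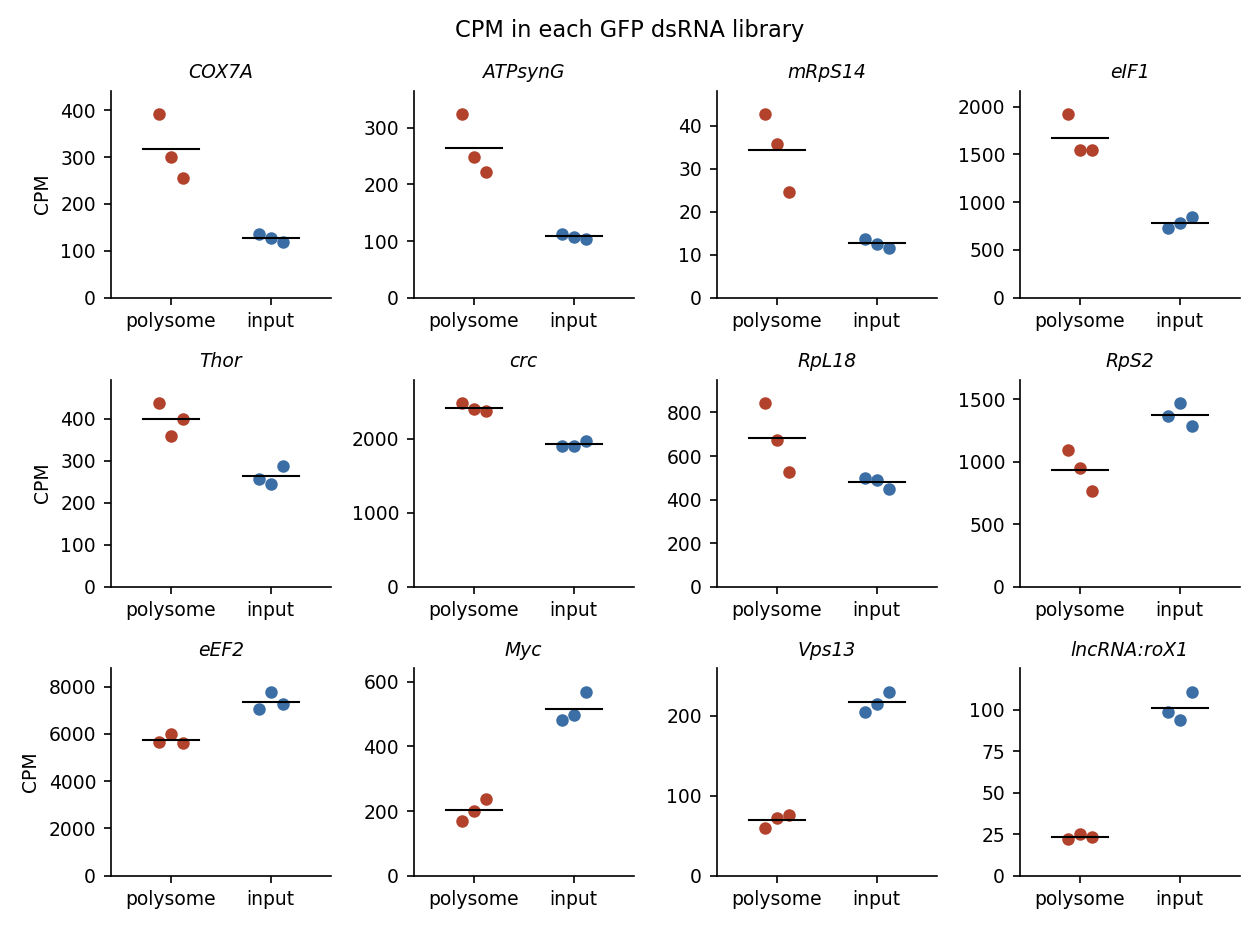
CPM (y axis, from 0) of 12 genes in each of the 3 polysome (left, red) and 3 input (right, blue) libraries of GFP dsRNA cells, with black bars at the means. Polysome points lie above all inputs for COX7A, ATPsynG, mRpS14, eIF1, Thor, crc and RpL18 and below all inputs for RpS2, eEF2, Myc, Vps13 and lncRNA:roX1.

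Noncoding RNAs led the falls among genes with at least 10 CPM. roX1 (lncRNA:roX1, FBgn0019661, dm6, X, 3857230 to 3862697, minus strand), an RNA of the complex that doubles transcription of the male X chromosome, had 22.4, 25.03 and 23.2 CPM on polysomes and 98.9, 94.2 and 111 CPM in input (-2.10 ± 0.09, adjusted p = 2.6e-10). Its partner roX2 (lncRNA:roX2, FBgn0019660, X, 11579065 to 11580432, plus strand) had 29.9, 28.7 and 28.3 CPM on polysomes and 84.6, 79.2 and 79.8 CPM in input (-1.49 ± 0.08, adjusted p = 7.7e-10). Both lay far below every input. The stress RNA lncRNA:Hsromega had 347, 339 and 327 CPM on polysomes and 333, 329 and 322 CPM in input and was not called (0.04).

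lncRNA:CR32218 (-2.09) and lncRNA:CR40469 (-1.67) were also low. Of 24 tested small nuclear and nucleolar RNAs (293 listed) 0 were higher and 10 lower (median -0.62, with 15 lower after length correction), with RNaseP:RNA at 1.76, 2.06 and 1.85 CPM on polysomes and 7.46, 7.02 and 7.14 CPM in input. Most RNAs of this kind lack a poly(A) tail, and these libraries were selected for one. Of 6 snoRNA host genes 4 were lower and 1 higher (Uhg3, 0.34), and after length correction all 6 were lower.

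Annotated long noncoding RNAs as a class did not stand low. Of 247 tested (1979 listed) 82 were higher and 18 lower, against 30.4% and 30.5% of all genes tested. The class median of 0.32 turned to -0.09 after length correction (24 higher and 46 lower). Among noncoding RNAs of 600 to 1200 nt the median was 0.29 (86 genes), against 0.62 for coding genes of the same exon length (1464 genes). From 1200 to 2400 nt it was 0.23 (63 genes), against 0.14 for coding genes (2981 genes). Of the 247 genes 126 have a neighbour on the opposite strand that overlaps them, and without these 47 of 121 were higher and 10 lower.

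The largest rises of coding genes were taken among those with a mean of at least 10 CPM in either fraction, so a gene below 10 CPM in input could enter only through polysomes. Apart from bru3, described in the next paragraph, they were genes of small proteins with short mRNAs. CG32069 (FBgn0052069, dm6, 3L, 11062131 to 11062614, minus strand) had 32.2, 19.7 and 19.0 CPM on polysomes and 7.46, 7.43 and 7.25 CPM in input (1.68 ± 0.19, adjusted p = 9.4e-07). CG13751 (1.64), mRpL34 (1.59), Nop10 (1.51) of the pseudouridine-guiding complex, CG34132 (1.48) and Cpr50Cb (1.42), named as a cuticle protein, followed. Polysome replicate 1 was the highest of the 3 in each of these 6 genes. The rule took only genes whose polysome libraries did not overlap the inputs, so that separation is no separate result. lncRNA:CR43967 (1.41) was the noncoding gene among the largest rises.

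bru3, an RNA-binding protein gene, also met the rule for large rises, with values that did not follow the fractions. It had 26, 5863 and 2053 counts in polysome replicates 1 to 3 and 2, 1 and 3 counts in the inputs of GFP dsRNA cells. In porthos dsRNA cells it had 2690, 10092 and 1263 counts on polysomes and 2, 6 and 8250 counts in input. Input replicate 3 of porthos dsRNA cells thus stood as high as the polysome libraries, and the fitted log2 ratio in GFP dsRNA cells, 10.32 ± 1.58, lost its call in limma voom.

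Among the largest falls, Vps13 (FBgn0033194, dm6, 2R, 7566809 to 7580675, plus strand), a long lipid transfer protein, had 59.2, 72.7 and 75.6 CPM on polysomes and 205, 215 and 231 CPM in input (-1.65 ± 0.09, adjusted p = 7.7e-10). mfas (-1.60), the export factor relative Nxf3 (-1.60), the adhesion protein gene Nrt (-1.57), the Golgi protein gene Gmap (-1.55) and the BMP antagonist sog (-1.52) came next. The longest coding sequences did not stand lowest. dpy, an apical matrix protein with a coding sequence of 68847 nt, had 149, 151 and 161 CPM on polysomes and 166, 166 and 178 CPM in input (-0.15, not called). Msp300 (-0.77) and shot (-0.59), giant linkers of the cytoskeleton, were lower, but after length correction shot had 0.04 and dpy 0.56.

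Of the 10 most abundant genes in input, Arc1, a capsid-like protein gene, was the lowest, with 1283, 1558 and 1266 CPM on polysomes and 3427, 3117 and 3227 CPM in input (-1.25 ± 0.09, adjusted p = 1.0e-08). The actin gene Act5C had 6637, 7807 and 7633 CPM on polysomes and 9675, 9437 and 8777 CPM in input (-0.34 ± 0.10, adjusted p = 0.0073), a call lost with library size scaling. The RNA-binding protein gene sqd (-0.63) was lower, and the calmodulin gene Cam (0.27) was higher with the call lost on leaving out single libraries (largest adjusted p = 0.074). The most abundant identifier of all, FBgn0000556, has no symbol in the annotation used and was not called (-0.20).

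Several genes named above overlap another gene on the opposite strand, and the strand setting of the counting is not given in the sources used here. Among them are CG32069, CG13751, mRpL34, Nop10, CG34132, lncRNA:CR43967, lncRNA:roX1, Vps13, Nrt, Gmap, Myc, GluProRS, Nopp140, Mybbp1A, AGO1, AGO2, Dcr-2, RpS29, RpL18, RpL41, Rpt6, SdhA, ATPsynbeta, Oda, porthos, aub and elav. In all, 3792 of the 8688 genes tested have such a neighbour. Over the 4697 annotated genes without one the counts were 1396 higher (29.7%) and 1475 lower (31.4%), with 157 and 129 at least 2-fold.

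The gradient with coding length was set against that of porthos dsRNA cells. The slope per doubling was -0.28 ± 0.025 log2 units in the porthos polysome libraries and -0.33 ± 0.052 in the GFP polysome libraries (SD, n = 3 each). The 3 porthos values (-0.29, -0.29 and -0.25) all lay above the 3 GFP values (-0.39, -0.30 and -0.30). The difference of 0.057 had p = 0.1 in a two-sided exact permutation test, which is the smallest p that 3 against 3 can give. For single genes, the ratio differed between porthos and GFP dsRNA for 9 of 9024 genes (0.0997%), with an adjusted p below 0.05 by edgeR's test of the interaction. Of these, Ns1 had a log2 ratio of -0.17 with porthos and -0.86 with GFP dsRNA (difference 0.69 ± 0.12, adjusted p = 0.018). That count ran from 0 to 694 when single libraries were left out, and it was 39 with a replicate block, 227 with a block per lysate and 227 in DESeq2.

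**Figure D5:**
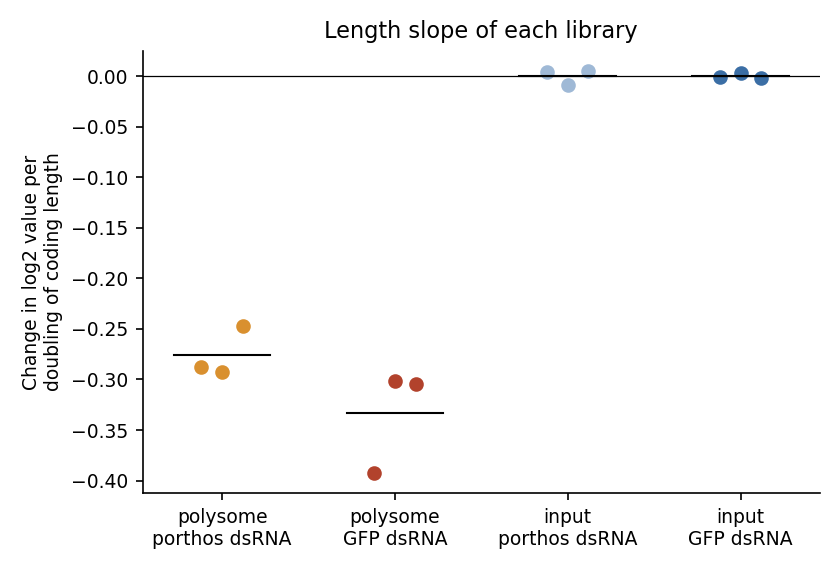
Change in log2 value (CPM minus the mean input of the same dsRNA) per doubling of coding length (y axis) for each of 12 libraries, grouped on the x axis as polysome with porthos dsRNA, polysome with GFP dsRNA, input with porthos dsRNA and input with GFP dsRNA. Black bars are means. Polysome slopes lie between -0.39 and -0.25. Input slopes center on 0 by construction, because inputs are set against their own mean.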

How the data were processed

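Raw counts of reads per FlyBase identifier were deposited separately for each library. The authors used HISAT2 2.1.0, featureCounts 1.4.6 and genome build dm6, per the submitters' processing notes. The strand setting is not given in the sources used here. An Ensembl annotation of dm6 gave a symbol for 16647 of 17023 identifiers, and the other 376 held 5.25% of the counts of the 6 libraries. From the deposited counts, genes were kept by filterByExpr, scaled with TMM and tested with edgeR 4.0.16 (R 4.3.3) by glmQLFit and glmQLFTest, with 3 polysome against 3 input libraries and no block. Interactions used all 12 libraries. Calls have a Benjamini-Hochberg adjusted p under 0.05. Standard errors are the log2 ratio over the square root of F, and errors of CPM are SDs over libraries. The common biological coefficient of variation was 0.0686. A floor of 3 counts equals 0.297 to 0.397 CPM and covers counting error only. Replicates differed by more than counting noise (lowest chi-square per degree of freedom 2.30).

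Lengths are of the transcript with the longest coding sequence, known for 8489 of the genes tested (97.7%), of which 8160 are protein-coding. For the length-corrected ratio, a loess trend (span 0.5) on summed exon length was taken from each library. On simulated counts, 93 of 100 genes with a log2 ratio of 1 and 73 of 100 with 0.5 were recovered, with 8 unchanged genes called. Only these genes of 8688 were changed, evenly up and down, and no length trend was put in. In the data 60.9% of genes were called, so these rates may not hold for the main fit.

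Named genes were the 10 largest called changes each way with at least 10 CPM and fractions that did not overlap, the 4 smallest p per list, the 10 most abundant in input, 2 lists in full, and the 3 shortest and 3 longest coding sequences above 50 CPM. Other list members named were chosen after their values were seen. The members and the 41 lists were chosen with earlier results of these data known. Alternatives were other scalings and filters, DESeq2 1.42.0, limma 3.58.1 voom, a replicate block, leaving out each library, and leaving out genes with an opposite-strand neighbour. GC content and sequence motifs were not analysed here.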

Additional observations from a re-analysis of the deposited data

Results flagged for a closer look

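Among the genes named above, 3 had a polysome ratio that differed between porthos and GFP dsRNA cells in edgeR's test of the interaction over 12 libraries. CG13751 had a log2 ratio of 0.50 with porthos and 1.62 with GFP dsRNA, a difference of -1.12 ± 0.22 (adjusted p = 0.047). Nopp140 had -0.47 with porthos and -1.09 with GFP dsRNA, a difference of 0.62 ± 0.11 (adjusted p = 0.029). Ns1 had a difference of 0.69 ± 0.12 (adjusted p = 0.018). CG13751 and Nopp140 overlap a gene on the opposite strand. The count of genes with such a difference was 9 over all genes tested, and 1352 genes had an unadjusted p under 0.05. It was 0 without polysome or input replicate 1 of either dsRNA, without polysome or input replicate 2 of GFP dsRNA, and without input replicate 3 of porthos dsRNA. It was 694 without polysome replicate 2 of porthos dsRNA, 79 without polysome replicate 3 of GFP dsRNA, 3 without input replicate 2 of porthos dsRNA, and 6 without each of the other 2 libraries.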

How the results depend on the processing

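The counts of higher and lower genes stayed within 1.5 times of 2640 and 2654 under every setting run except that without opposite-strand neighbours (1396 and 1475, of fewer genes tested). At least 2-fold, the counts were 555 and 125 with library size alone, 539 and 128 with upper quartile scaling, 43 and 100 after length correction, and 157 and 129 without opposite-strand neighbours. The setting without opposite-strand neighbours tested 4697 genes, against 8688 in the main fit, so its counts are not on the same base. The median of all genes rose by 0.11 with library size alone and by 0.11 with upper quartile scaling. After length correction the SD of the ratios was 0.42, against 0.56 before it. Beyond these values, the cause of these 4 shifts was not tested. Leaving out 1 library gave 2410 to 2615 higher and 2431 to 2575 lower genes, and 208 to 452 and 191 to 277 at least 2-fold. The 9 genes that differed between porthos and GFP dsRNA became 39 with a replicate block, 227 with a replicate block per lysate, 16 with library size alone, 227 with DESeq2 and 0 to 694 on leaving out 1 library.

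Same-numbered polysome and input libraries deviated together with correlations of 0.062, 0.076 and 0.16, and each library correlated best with its own number. The main fit did not take the numbers to pair the samples. Each lysate was divided into input and gradient, and so few correlations cannot exclude that the numbers mark these pairs. The count of genes that differed between porthos and GFP dsRNA was larger with a block per lysate, as given above, and so depends on this choice. With a replicate block 2751 genes were higher and 2751 lower, with 324 and 225 at least 2-fold.

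List medians changed sign as follows. After length correction they were -0.32 for cytoplasmic ribosomal proteins (-0.319 for the large and -0.324 for the small subunit), -0.14 for the proteasome, -0.063 for ER targeting, -0.093 for long noncoding RNAs, -0.11 for the 1 tested histone gene His2B:CG33868, 0.071 for signalling, 0.11 for transcription factors, 0.11 for actin and 0.050 for glycolysis. With library size alone they were 0.094 for actin, 0.076 for glycolysis and 0.071 for translation factors, and with upper quartile scaling 0.087, 0.069 and 0.064. Actin had 0.015 and the vacuolar ATPase -0.077 with no filter, and 0.0044 and -0.075 at 10 CPM and over, where neuron, muscle and fat body markers (4 tested) had -0.57. Actin had 0.10 without opposite-strand neighbours, and the vacuolar ATPase -0.11 with all 12 libraries in 1 fit.

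On leaving out 1 library the medians ran from -0.0024 (without input replicate 3) to 0.086 for ER targeting, -0.079 (without input replicate 1) to 0.12 for the vacuolar ATPase, -0.014 (without polysome replicate 2) to 0.19 for the proteasome, -0.68 to 0.079 (without input replicate 3) for heat shock and chaperones, -0.061 to 0.023 (without polysome replicate 1) for glycolysis, -0.040 to 0.026 for actin, and -0.11 to 0.079 for neuron, muscle and fat body markers. Of the named genes, RpL18 (-0.11), RpL34a (-0.087), RpL39 (-0.63), Sxl (0.21), Thor (-0.023), Tm1 (0.20), Uhg3 (-0.24), dpy (0.56), shot (0.042) and His2B:CG33868 changed sign after length correction. Genes near 10 CPM rest on fewer counts than abundant ones.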

Other observations

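After length correction, a further set of genes with at least 50 CPM in a fraction was among the leading rises, and this set was picked after the values were seen. bru3, whose counts are given above, and CG44325 (1.11) also stood among them. The dynein light chain gene ctp had 1308, 1247 and 1201 CPM on polysomes and 677, 671 and 721 CPM in input, a log2 ratio of 0.86 and a length-corrected one of 1.21 (edgeR adjusted p = 6.2e-11). The ATP synthase gene ATPsyndelta had a length-corrected ratio of 1.28, CARPB of 1.25, the nuclear transport factor gene Ntf-2 of 1.16, the ESCRT gene Vps24 of 1.15, the fatty acid binding protein gene fabp of 1.08 and the cristae protein gene Mic26-27 of 1.07. Uncorrected, ATPsyndelta had 0.99, CARPB 0.76, Ntf-2 0.87, Vps24 0.90, fabp 0.998 and Mic26-27 0.97. The correction used summed exon length. By coding length, genes of 300 to 600 nt had a median uncorrected ratio of 0.76 and those of 600 to 1200 nt one of 0.31. The coding sequences of these 7 genes run from 390 nt (Ntf-2) to 981 nt (CARPB). Their summed exons run from 2302 nt (fabp) to 8793 nt (CARPB). Lpt, a chromatin gene with a coding sequence of 4446 nt, had 172, 153 and 152 CPM on polysomes and 107, 94.4 and 92.9 CPM in input, a ratio of 0.70 where the median of its length class was -0.40.

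At the other end, lncRNA:CR43264 had 242, 224 and 198 CPM on polysomes and 432, 402 and 424 CPM in input, with a length-corrected ratio of -1.73. The Cajal body gene coil had -1.21 and the snoRNA host gene Uhg5 had -1.26. Of these falls, coil and lncRNA:CR43264 overlap a gene on the opposite strand. Among the rises after length correction, bru3, ATPsyndelta, Ntf-2, Vps24 and Mic26-27 do so too.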
